A study of Mus musculus with 6 samples.

Results

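The insulin-like growth factor (IGF) axis was followed in cultured stromal cells of adult mouse bone marrow, with mesenchymal stem cells (MSC) and neural crest stem cells (NCSC) measured on 3 arrays each. It comprised 10 genes, the ligands Igf1 and Igf2, the receptors Igf1r and Igf2r and the binding proteins Igfbp2 to Igfbp7, out of 18194 genes with a probe set annotated to 1 gene. A total of 28 probe sets, of 45101 on the array, were annotated to exactly 1 of these genes. The genes were chosen on measured differences between the same MSC and NCSC arrays, so their levels and differences are given as a description, without p-values. A probe set annotated to both Igf2r and Airn was left out.

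All samples shared the genotype wnt1/CRE-R26R-lacZ, in which Cre recombinase under Wnt1 control switches on a lacZ reporter in descendants of the neural crest. The donors were female mice aged 10 weeks on a mixed C57BL/6 x SV129 background, and the cells were untreated. Both cell types were expanded in Mesencult medium through at least 5 passages before clones were selected. The replicates are labelled as biological, without naming separate donors or clones. Any p-value therefore reflects the spread among these 6 samples alone, which may be technical, and if each cell type rests on 1 clone, clone and cell type cannot be told apart.

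IGFs are small secreted relatives of insulin that signal for growth and survival through the tyrosine kinase Igf1r, while Igf2r, which is also a receptor for mannose 6-phosphate, takes up and clears Igf2. The secreted binding proteins hold IGFs with high affinity, carry them and withhold them from the receptor until proteases cut them, and Igfbp7 is a related protein with low affinity for IGFs. Bone marrow stroma and bone-forming cells are known sources of IGFs and of several binding proteins.

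Values are log2 intensities computed with GCRMA, a method that subtracts probe-specific background and sums the probes of a set, and levels of different probe sets cannot be set against each other. The lowest deposited value was 2.12 on the log2 scale, and a value above 4 was taken as above background. On each array 45.3% to 45.5% of the values passed this limit. A probe set was kept for the fit when at least 3 of the 6 arrays lay above the limit, which left 21004 probe sets. The array MSC 2 stood apart from MSC 1 and MSC 3 (r = 0.9894 and 0.9895 across kept probe sets, against 0.997 between those), and NCSC 3 stood apart from NCSC 1 and NCSC 2 (r = 0.986 with each, against 0.997). For some IGF axis probe sets in which 1 of these arrays stood out, values are also given without it.

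The labels were set against marker genes. All 6 measured neural crest markers were above the limit on every NCSC array, and 2 of them on every MSC array. These 2 were Tfap2a (means of 11.5 in NCSC and 7.2 in MSC) and Pax3 (9.5 and 4.7). Sox10, above the limit on 2 of 3 MSC arrays, had a mean of 12.84 in NCSC and 4.30 in MSC. The summed log2 intensity of the 6 markers was 14.37 to 14.72 in NCSC and 7.57 to 7.94 in MSC. Of 6 measured mesenchymal stromal markers 3 were above the limit on all MSC arrays and 4 on all NCSC arrays, with sums of 12.74 to 12.83 in MSC and 10.96 to 11.11 in NCSC, while Thy1 was at the lowest value on all arrays and Lepr stayed at 2.32. Within this list Vcam1 (12.61 in MSC and 8.57 in NCSC) and Pdgfra (9.61 and 6.44) were higher in MSC, but Eng (5.61 and 10.30) and Nt5e (3.00 and 8.51) were higher in NCSC. All 6 endothelial markers were at the lowest value on every array, and none of 3 measured osteoblast markers was above the limit on all arrays of either type. Of 8 macrophage and blood markers 1 was above the limit on all MSC arrays and 2 on all NCSC arrays, Ptprc and Itgam were at the lowest value on every array, Cd68 had a mean of 8.80 in NCSC and 2.76 in MSC, Cd14 went the other way with 2.18 in NCSC and 4.58 in MSC, and the sums were 6.59 to 7.02 in MSC and 9.07 to 9.21 in NCSC. Of 4 measured adipocyte markers Fabp4 and Pparg were above the limit on all MSC arrays, Adipoq and Lep were at the lowest value, and the sums were 13.55 to 13.80 in MSC and 4.34 to 5.03 in NCSC. Of 5 smooth muscle markers 4 were above the limit on all MSC arrays and 2 on all NCSC arrays, with Myh11 at the lowest value and sums of 16.56 to 16.67 in MSC and 14.37 to 14.68 in NCSC. The part of these differences in the results on IGF genes was not tested, and in bulk RNA fewer cells of a type and less RNA per cell cannot be told apart.

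Within the 10 genes of the IGF axis, the widest differences between the cell types were those of binding proteins. Igfbp3 and the Igfbp5 probe set 1452114_s_at were bright in NCSC and under the limit in the MSC mean, while the other Igfbp5 probe set was above the limit on all 6 arrays. In contrast, Igfbp6 and the brightest Igfbp4 probe set were bright in MSC and did not reach the limit in NCSC. Igfbp7 was above the limit in both and higher in NCSC. Of the 28 probe sets 21 were kept, covering 8 genes, and Igf2 and Igfbp2 had none. With limma's test and Benjamini-Hochberg adjustment, 16 of the 21 were called at an adjusted p under 0.05, of which 7 were higher and 9 lower in NCSC. Over all 21004 probe sets 58.9% were called, 32% higher and 26.9% lower in NCSC, and nothing is read from the members' counts because the same contrast chose them. The groups did not overlap in 17 of the 21, against 67.5% of all tested probe sets, and the median absolute difference was 0.68 for the members and 0.53 for all.

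**Figure D1:**
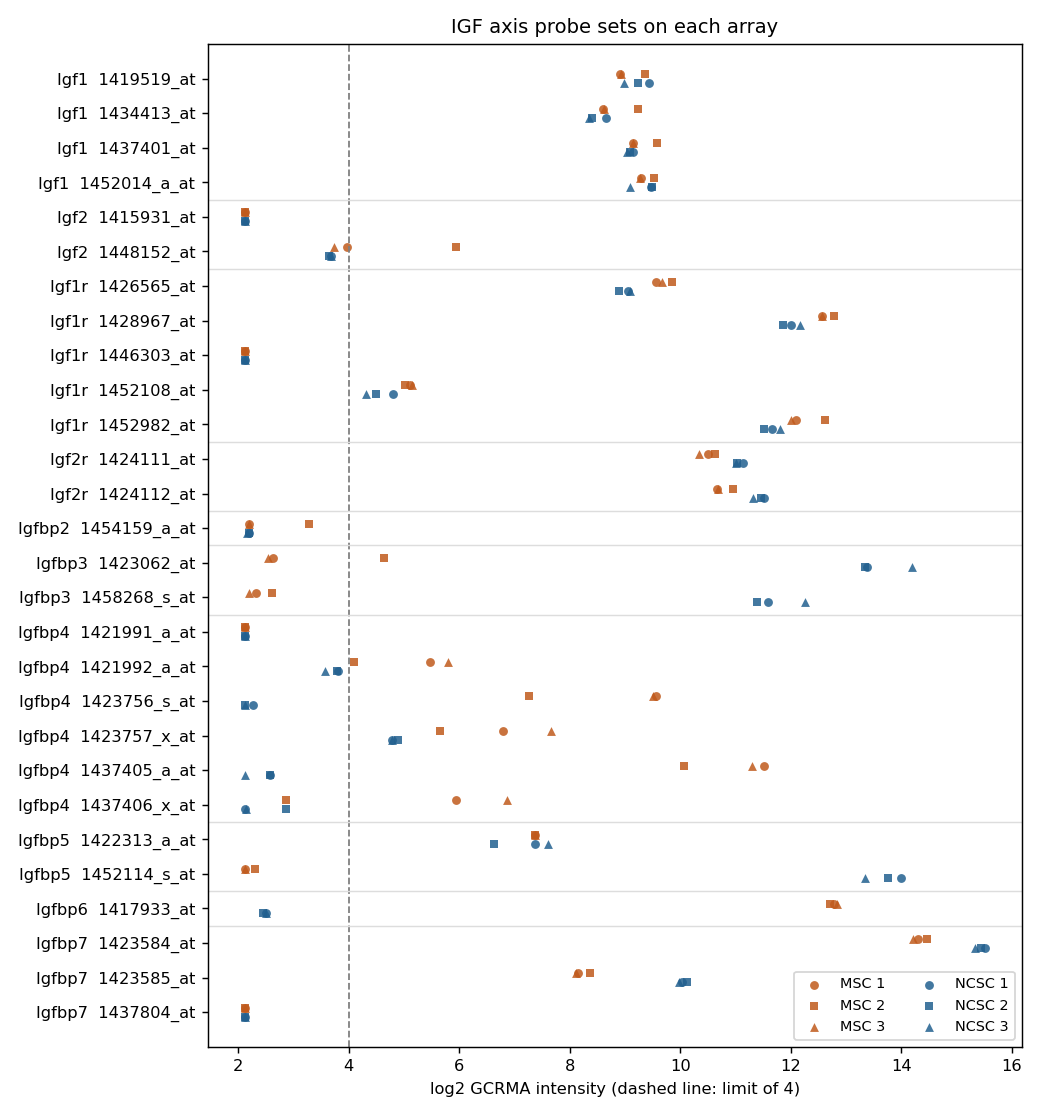
Log2 GCRMA intensity (x axis) of each of the 28 IGF axis probe sets (rows) on every array, with MSC in orange and NCSC in blue, the marker shape giving the replicate number and the dashed line the limit of 4. Igfbp3 and 1 Igfbp5 probe set lie far right in NCSC only, Igfbp6 and the brightest Igfbp4 probe set in MSC only.

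The sequences just upstream of the 4 binding protein genes with the widest differences between the cell types are shown, the brightest probe sets of Igfbp3 and Igfbp5 being higher in NCSC and those of Igfbp4 and Igfbp6 higher in MSC. They are the 150 bases before the annotated RefSeq start (assembly GRCm38.p6), printed along the strand of the gene, at chr11:7213924-7214073 (minus strand), chr1:72874866-72875015 (minus strand), chr11:99041094-99041243 (plus strand) and chr15:102144036-102144185 (plus strand). Capitals mark a match to the letters of a TATA box (TATAAA or TATATA on either strand) or to the AP-2 motif (GCCNNNGGC, the same on both strands).
Igfbp3: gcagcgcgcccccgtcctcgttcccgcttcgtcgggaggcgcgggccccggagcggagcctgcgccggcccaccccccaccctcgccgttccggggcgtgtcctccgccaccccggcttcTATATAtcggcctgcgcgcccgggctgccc
Igfbp5: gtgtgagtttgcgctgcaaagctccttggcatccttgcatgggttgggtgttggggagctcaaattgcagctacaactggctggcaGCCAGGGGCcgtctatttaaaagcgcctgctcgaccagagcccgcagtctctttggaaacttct
Igfbp4: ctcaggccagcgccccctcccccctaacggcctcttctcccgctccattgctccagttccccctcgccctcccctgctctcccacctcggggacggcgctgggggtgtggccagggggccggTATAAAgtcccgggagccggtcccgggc
Igfbp6: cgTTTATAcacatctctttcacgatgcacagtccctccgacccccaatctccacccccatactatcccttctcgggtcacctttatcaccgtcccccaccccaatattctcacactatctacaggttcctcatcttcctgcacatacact

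A TATA match began 30 bases before the start of Igfbp3 and 28 bases before that of Igfbp4. The match in Igfbp6 lay 148 bases before the start and was on the other strand, printed as TTTATA. Such a match, at any position and on either strand, was held by 9.48% of all 32851 RefSeq promoter windows of this length. Igfbp5 had no such match, and its window held the AP-2 motif 64 bases before the start, a motif found in 9.61% of windows. None of the 4 windows held the letters ACAAAG (a SOX motif, in 9.88% of windows), GGGCGG (a GC box, 28.6%) or TGACTCA (an AP-1 motif, 2.84%), all read on both strands. Base composition differed between the windows, with 78.7% G or C in Igfbp3, 73.3% in Igfbp4, 55.3% in Igfbp5 and 50.7% in Igfbp6. These matches describe letters in the reference sequence and not binding in these cells.

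Igfbp3, the main carrier of IGFs in serum and a protein with effects of its own on cell growth, was bright in NCSC and near background in MSC. Its probe set 1423062_at read 2.63, 4.64 and 2.55 on MSC 1, MSC 2 and MSC 3, and 13.37, 13.33 and 14.19 on NCSC 1, NCSC 2 and NCSC 3. Only MSC 2 among the MSC arrays was above the limit, and the groups were far apart. The difference was 10.36 ± 0.61 (SE) on the log2 scale, and with MSC values under the limit set to it, Igfbp3 was at least 684-fold higher in NCSC, or 793-fold without MSC 2. The other probe set, 1458268_s_at, read 2.33, 2.61 and 2.19 in MSC and 11.59, 11.40 and 12.25 in NCSC, at least 215-fold higher. NCSC 3 was the highest NCSC array in both probe sets, by 0.84 and 0.76 over the mean of NCSC 1 and NCSC 2. On the RefSeq map Igfbp3 lies on chromosome 11 beside Igfbp1, the liver-type binding protein, whose probe set did not rise above 2.12 on any array.

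Igfbp5, a binding protein of bone and muscle that also attaches to extracellular matrix, differed between its 2 probe sets. Probe set 1452114_s_at read 2.12, 2.30 and 2.12 on the MSC arrays and 13.99, 13.77 and 13.34 on the NCSC arrays. All MSC values lay near the lowest value of the table, far from the NCSC values. Its difference of 11.52 ± 0.18 was the widest of the 21 kept probe sets and corresponds to at least 830-fold higher signal in NCSC. Probe set 1422313_a_at read 7.37 on MSC 1, MSC 2, MSC 3 and NCSC 1 alike, 6.63 on NCSC 2 and 7.61 on NCSC 3. It differed by -0.17 ± 0.25 (95% confidence interval -0.78 to 0.45), and with chromosome medians removed by -0.61. A value shared to 3 decimals by at least 4 arrays was found in 1.48% of tested probe sets, and here it lay well above the limit in cells whose other Igfbp5 probe set was near background. Which transcript parts the 2 probe sets read was not analysed here. NCSC 3 was the lowest NCSC array in the bright probe set, at -0.54 from the mean of NCSC 1 and NCSC 2, whereas it was the highest for Igfbp3.

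Igfbp2, a binding protein of fetal and nervous tissue, is the neighbour of Igfbp5 on chromosome 1 and was not above the limit on any array. Its only probe set read 2.20, 3.29 and 2.20 in MSC and 2.20, 2.20 and 2.16 in NCSC. The highest value was again that of MSC 2, and the strong NCSC signal of Igfbp5 had no counterpart in this adjacent gene.

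Igfbp6, a binding protein that prefers Igf2 over Igf1, had the opposite pattern to Igfbp3. Its only probe set read 12.79, 12.70 and 12.83 in MSC and 2.51, 2.44 and 2.51 in NCSC. The replicate SDs were 0.067 in MSC and 0.041 in NCSC (n = 3 each), and none of the values came near those of the other group. The NCSC values lay near the lowest deposited value of 2.12, where spread between replicates can be hidden. Igfbp6 was at least 438-fold lower in NCSC, from a difference of -10.29 ± 0.078 (SE). It lies on chromosome 15, where the median difference of all tested probe sets was 0.028.

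Igfbp4, a binding protein that restrains IGF action and is cut by the protease Pappa, was lower in NCSC in all 4 kept probe sets, with differences from -8.53 to -1.41 on the log2 scale. Probe set 1437405_a_at read 11.51, 10.07 and 11.29 in MSC and 2.57, 2.57 and 2.12 in NCSC, at least 124-fold lower in NCSC (169-fold without MSC 2). Probe set 1423756_s_at read 9.57, 7.27 and 9.51 in MSC against 2.27, 2.12 and 2.12, at least 27.5-fold lower in NCSC (46.4-fold without MSC 2). In both the groups were well separated and MSC 2 was the lowest MSC array.

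The remaining Igfbp4 probe sets were dimmer. On 1423757_x_at MSC read 6.80, 5.65 and 7.66 and NCSC 4.78, 4.89 and 4.78, a difference of -1.88 ± 0.48 (-2.41 without MSC 2). On 1421992_a_at MSC read 5.48, 4.11 and 5.80 and NCSC 3.80, 3.78 and 3.57, at least 2.18-fold lower in NCSC (3.11-fold without MSC 2). The latter was just inside the filter with 3 arrays above the limit, and 1437406_x_at, at 5.95, 2.86 and 6.86 in MSC and 2.12, 2.86 and 2.15 in NCSC, was just outside it with 2. Probe set 1421991_a_at was at 2.12 on all arrays. In every Igfbp4 probe set with a signal MSC 2 was the lowest MSC array, at -2.27 to -1.33 from the mean of MSC 1 and MSC 3 in the kept ones. On 1437406_x_at it matched the highest NCSC array. The probe sets of 1 gene share its transcript and are not independent measurements.

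Igfbp7, a secreted protein of vessels and stroma with low affinity for IGFs, was above the limit on all 6 arrays in 2 probe sets. Probe set 1423584_at read 14.29, 14.46 and 14.21 in MSC and 15.51, 15.44 and 15.33 in NCSC, and 1423585_at read 8.15, 8.36 and 8.11 in MSC and 10.04, 10.12 and 9.98 in NCSC. Every NCSC array lay above every MSC array in both. The differences were 1.11 ± 0.10 (SE) and 1.84 ± 0.10. Igfbp7 lies on chromosome 5, where the median difference of all tested probe sets was 0.49, and with chromosome medians removed the values were 0.53 and 1.27. The third probe set, 1437804_at, was at 2.12 throughout.

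**Figure D2:**
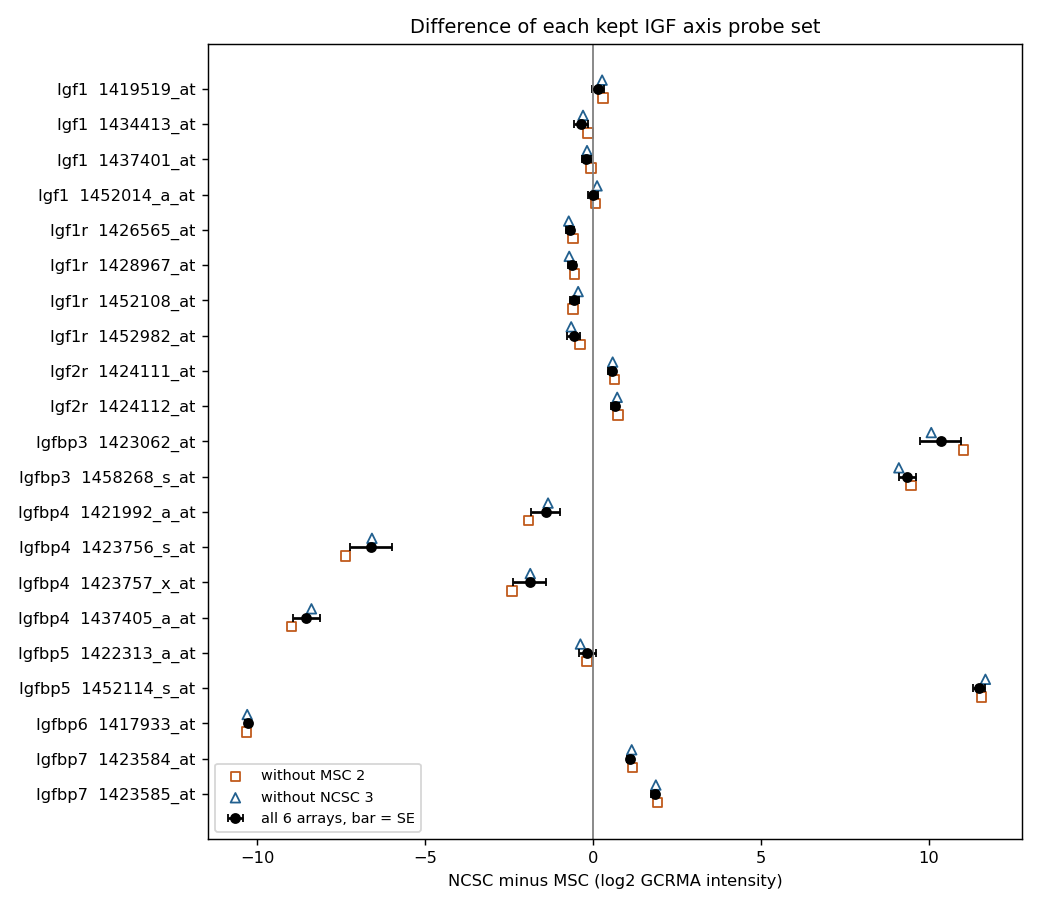
Difference NCSC minus MSC in log2 GCRMA intensity (x axis) for the 21 kept IGF axis probe sets (rows), with black points from all 6 arrays and bars of 1 SE, orange squares without MSC 2 and blue triangles without NCSC 3. The widest differences are those of Igfbp3, Igfbp6 and 1 Igfbp5 probe set, while Igf1, Igf1r, Igf2r and the other Igfbp5 probe set lie within 1 of 0.

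Igf1, the main growth factor of the axis, was present in both cell types at like levels. Its 4 probe sets were above the limit on all arrays. The widest gap was that of 1434413_at, which read 8.61, 9.24 and 8.62 in MSC and 8.65, 8.41 and 8.35 in NCSC, a difference of -0.36 ± 0.20 (95% confidence interval -0.84 to 0.13). Probe set 1419519_at read 8.90, 9.35 and 8.92 in MSC and 9.44, 9.23 and 8.98 in NCSC, a difference of 0.16 ± 0.18 (-0.27 to 0.59). The groups overlapped in both. Probe set 1437401_at differed by -0.20 ± 0.14, and its groups did not overlap, though MSC 3 (9.15) and NCSC 1 (9.14) were close. The groups overlapped in 1452014_a_at, which differed by -0.0051 ± 0.14. The direction was not the same over the 4.

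MSC 2 was the highest MSC array in all 4 Igf1 probe sets, by 0.26 to 0.62, and without it the differences ran from -0.15 to 0.31. Igf1 lies on chromosome 10, where the median difference was -0.35. With chromosome medians removed, the 4 differences were all above 0, at 0.57, 0.055, 0.21 and 0.41 for 1419519_at, 1434413_at, 1437401_at and 1452014_a_at. The other 3 probe sets changed sign between alternatives, whereas 1419519_at was above 0 in every one (0.049 to 0.57) and was called higher in 3 of them, namely with array weights, with chromosome medians removed, and without MSC 2 and NCSC 3 together.

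Igf2, the growth factor of fetal tissues that is expressed from the paternal allele, was at or near background. Probe set 1415931_at was at 2.12 on all 6 arrays. Probe set 1448152_at read 3.98, 5.94 and 3.73 in MSC and 3.68, 3.64 and 3.68 in NCSC. MSC 2 alone was above the limit, so neither probe set was kept, and the MSC mean of 4.55 ± 1.21 (SD, n = 3) rests on that array.

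Igf1r, the receptor that carries the IGF signal, was lower in NCSC by a modest and even amount in 4 of its 5 probe sets. Probe set 1428967_at read 12.56, 12.78 and 12.56 in MSC and 12.00, 11.86 and 12.17 in NCSC, and 1426565_at read 9.55, 9.85 and 9.67 in MSC and 9.04, 8.90 and 9.09 in NCSC. The groups did not overlap in any of the 4, and differences ran from -0.68 ± 0.11 (SE) to -0.55 ± 0.14, or 1.46-fold to 1.60-fold lower. The widest replicate spread was that of 1452982_at, whose difference of -0.58 was -0.39 without MSC 2. With chromosome 7 and the other chromosome medians removed, the 4 differences ran from -0.97 to -0.84. The fifth, 1446303_at, was at 2.12 on all arrays.

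Igf2r, which removes Igf2 and sorts lysosomal enzymes, differed in the other direction. Probe set 1424112_at read 10.66, 10.94 and 10.69 in MSC and 11.52, 11.46 and 11.31 in NCSC, and 1424111_at read 10.50, 10.64 and 10.34 in MSC and 11.14, 11.02 and 11.02 in NCSC. No array of one group reached the other in either probe set. The differences were 0.66 ± 0.11 and 0.57 ± 0.10, that is 1.58-fold and 1.48-fold higher in NCSC. Igf2r lies on chromosome 17, where the median difference was 0.12, and with chromosome medians removed the values were 0.49 and 0.40.

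The array MSC 2 differed from the other MSC arrays in many of these probe sets. It was the array farthest from the MSC median in 19 of the 20 kept probe sets whose MSC values were not all alike, compared with 55.9% of all tested probe sets. It lay more than 1 on the log2 scale from the mean of MSC 1 and MSC 3 in 5 of the 21, against 3.07% of all. Those 5 were the 4 Igfbp4 probe sets, all lower in MSC 2, and Igfbp3 1423062_at, higher in MSC 2. The dim genes Igf2 and Igfbp2 were also highest there. NCSC 3 was farthest from the NCSC median in 11 of 21, compared with 56.6% of all, and no kept member lay more than 1 from the mean of NCSC 1 and NCSC 2. The comparisons are descriptive, since several probe sets share a gene.

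**Figure D3:**
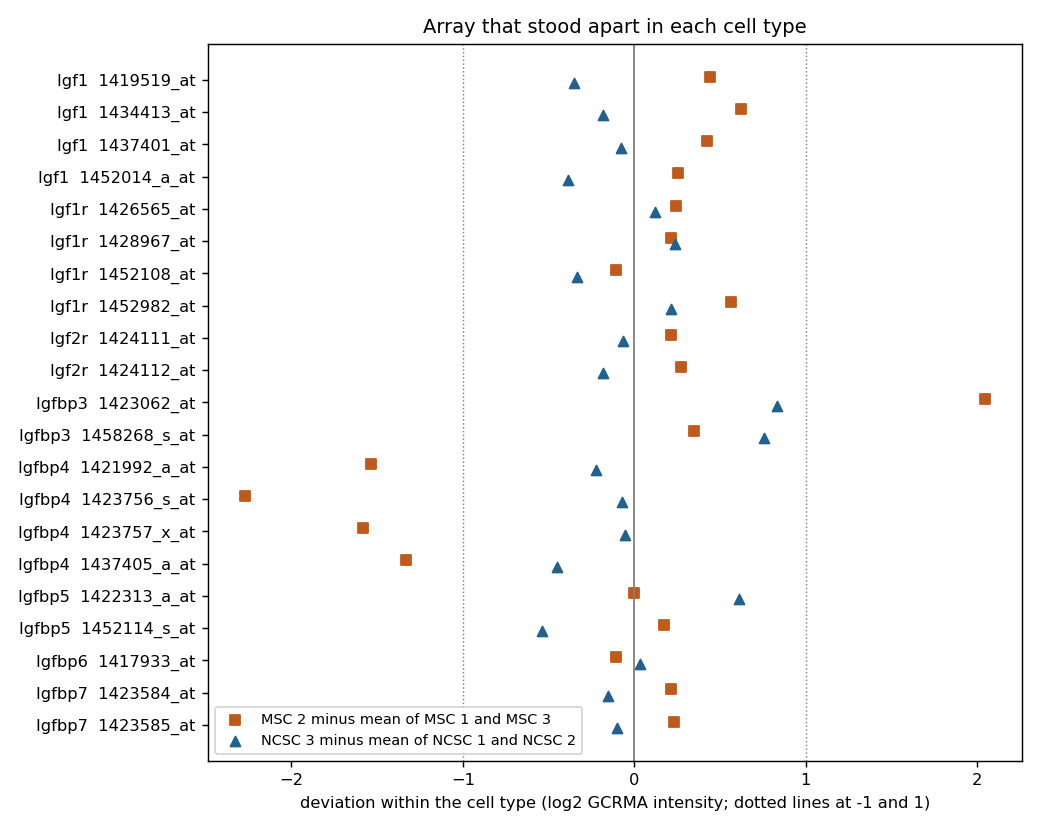
Deviation of MSC 2 from the mean of MSC 1 and MSC 3 (orange squares) and of NCSC 3 from the mean of NCSC 1 and NCSC 2 (blue triangles) in log2 GCRMA intensity (x axis) for the 21 kept IGF axis probe sets (rows). The 4 Igfbp4 probe sets lie between -2.27 and -1.33 for MSC 2, and Igfbp3 1423062_at lies at 2.05.

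Genes whose profiles over the 6 arrays were most like those of Igfbp3 and Igfbp5 were found by the Euclidean distance of log2 values centred on their mean. For Igfbp5 1452114_s_at the nearest were the transcription factor Sox2 (distance 0.46), the monooxygenase-like Moxd1 (0.65), the glial cadherin Cdh19 (0.76), the adhesion molecule Cadm4 (0.98) and Tenm3 (1.12). For Igfbp3 1423062_at they were Cadm4 (1.42), Cadm1 (1.75), Slc35f1 (1.84), Tafa5 (1.89) and Nkd2 (1.90). Cadm4 and Nkd2 shared with Igfbp3 an MSC 2 value above those of MSC 1 and MSC 3, at 4.19 and 3.57. With 6 arrays in 2 groups such likeness reflects mainly the size of the difference between the cell types.

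The rest of the pathway was taken from 9 lists of 87 genes, of which 75 had a probe set annotated to 1 gene and 59 were tested, each by its brightest kept probe set. Of these, 33 passed the limma fit's threshold, with 15 of them higher and 18 lower in NCSC, and 26 did not. With chromosome medians removed 19 were higher and 15 lower. The 33 are 55.9%, against 62.7% of all 10501 tested genes (34.1% higher and 28.6% lower). Their median difference was 0.15 on the log2 scale, and that of all genes 0.056. P-values here are adjusted by the Benjamini-Hochberg method over all tested probe sets, and n is 3 arrays in each group.

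Of 4 genes that regulate IGF RNA 2 were tested, and both were lower in NCSC. Igf2bp3, an RNA-binding protein of fetal tissues that binds the Igf2 messenger, read 11.06, 11.03 and 11.15 in MSC and 3.05, 3.55 and 5.31 in NCSC, where only NCSC 3 was above the limit. It was at least 99.8-fold lower in NCSC (limma adjusted p = 0.000158), or 135-fold without NCSC 3, with all 6 kept probe sets called the same way. Its relative Igf2bp1 read 6.23, 6.42 and 6.43 in MSC and 3.76, 3.77 and 3.40 in NCSC, at least 5.14-fold lower (limma adjusted p = 2.18e-05), and 3 of its 4 kept probe sets were called.

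Among proteases that cut binding proteins, 3 of 6 tested genes were lower and 2 higher in NCSC. The serine protease Htra1, which cuts Igfbp5 among other substrates, fell by 3.99 ± 0.18 (SE) on the log2 scale (limma adjusted p = 1.73e-05). Pappa, which releases IGFs from Igfbp4, read 8.16, 8.79 and 8.14 in MSC and 6.60, 6.61 and 7.37 in NCSC and differed by -1.50 ± 0.28 (limma adjusted p = 0.00475). MSC 2 and NCSC 3 were the highest arrays of their groups, which did not overlap. The metalloprotease Adam9 fell by 1.29, a call lost with chromosome medians removed (-0.26, limma adjusted p = 0.0724, range over the alternatives 3.78e-06 to 0.0724). Adam12, a metalloprotease that cuts Igfbp3 and Igfbp5, rose by 1.81 ± 0.16 and the lysosomal protease Ctsd by 1.01 ± 0.14 (limma adjusted p = 0.00026 and 0.00149). Adamts1 differed by 0.45 ± 0.18 and was not called (limma adjusted p = 0.076), but was called without NCSC 3 (0.64, limma adjusted p = 0.00441, range 0.00184 to 0.324). Pappa2, Stc1, Stc2 and Adam28 did not pass the filter.

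Relatives that carry an IGFBP-type domain were mostly lower in NCSC, 6 of 8 tested with 1 higher and 1 not called. Ccn3 (also known as Nov), a matrix-associated signalling protein, read 11.21, 11.33 and 11.10 in MSC and 2.22, 2.12 and 2.37 in NCSC, at least 148-fold lower in NCSC (limma adjusted p = 8.04e-08). After Htra1, Kazald1 had the next largest change, at -1.73 ± 0.17. The cysteine-rich matrix proteins Ccn1 and Ccn2 and the membrane protein Crim1 were lower in NCSC, where Ccn1 fell by 1.00, Ccn2 fell by 0.96 and Crim1 differed by -1.68, the Ccn1 call being lost without the filter (limma adjusted p = 0.0723, range 0.000721 to 0.0723). Ccn4 was higher by 0.40 (limma adjusted p = 0.0446), a call lost when any single array was left out (0.052 to 0.0996, range over all alternatives 0.023 to 0.139). Ccn5 was not called (0.21 ± 0.23), but was called without NCSC 3 (0.46, limma adjusted p = 0.0215, range 0.0195 to 0.883).

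Of the insulin genes and carriers only Insr was tested, and Ins2, Insrr, Igfals and Igfbp1 were not above the limit. Insr, the insulin receptor that also pairs with Igf1r, fell by 0.90 ± 0.13 (limma adjusted p = 0.0018). It lies on chromosome 8, where the median difference was -0.94, and with chromosome medians removed it was 0.13 (limma adjusted p = 0.479, range 0.000963 to 0.479). Among other surface partners Itgb3, the integrin beta chain that pairs with Itgav in the vitronectin receptor, read 2.54 on all MSC arrays. In NCSC Itgb3 read 9.74, 9.53 and 9.58, at least 49-fold higher (limma adjusted p = 8.86e-08). The MSC values were identical (SD 0), so this p-value holds no spread among the MSC arrays. The other kept Itgb3 probe set differed by 2.97 ± 0.25. Lrp1, a scavenger receptor reported to bind Igfbp3, fell by 1.47 ± 0.24 (limma adjusted p = 0.00296). M6pr, Tmem219 and Itgav were not called, at -0.055, 0.14 and 0.15. With chromosome medians removed M6pr was called higher (0.33, limma adjusted p = 0.0301, range 0.0301 to 0.898), and Itgav was called with array weights (0.20, limma adjusted p = 0.0239, range 0.0239 to 0.46) and with trended, robust moderation (limma adjusted p = 0.0441).

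On the path from growth hormone to Igf1 transcription 1 of 5 tested genes was called. Socs2, a feedback inhibitor of growth hormone signalling, read 12.27, 12.33 and 12.32 in MSC and 8.58, 8.54 and 9.07 in NCSC and fell by 3.58 ± 0.16 (limma adjusted p = 1.39e-05). The receptor Ghr and the signalling genes Jak2, Stat5a and Stat5b had differences of -0.18, -0.094, -0.021 and 0.15 and were not called.

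Of 11 tested receptor adaptors and inhibitors 3 were higher, 2 lower and 6 not called. Grb10, an imprinted adaptor that dampens IGF1 and insulin receptor signalling, read 13.88, 13.63 and 13.82 in MSC and 2.23, 2.12 and 2.22 in NCSC, at least 877-fold lower in NCSC (limma adjusted p = 4.28e-08). Its other kept probe set, dimmer in MSC, differed by -2.27 ± 0.24. Its relative Grb14, an inhibitor of the insulin receptor, read 8.89, 9.31 and 9.01 in MSC and 13.07, 12.95 and 12.20 in NCSC and rose by 3.67 ± 0.25 (limma adjusted p = 9.07e-05). The groups did not overlap for either of these related adaptors, which lay on opposite sides. Gab1, a docking protein, rose by 1.00 ± 0.13, and Socs3 fell by 1.09 ± 0.17. Ptpn11, a phosphatase on chromosome 5, rose by 0.37, and with chromosome medians removed was at -0.21 (limma adjusted p = 0.125, range 0.00221 to 0.125). The insulin receptor substrates Irs1 and Irs2 differed by 0.57 ± 0.24 and 0.24 ± 0.15 and were not called, although Irs1 was called without MSC 2 (0.85, limma adjusted p = 0.00132, range 0.00132 to 0.632) and Irs2 with chromosome medians removed (1.28, limma adjusted p = 0.000354, range 0.000354 to 0.49).

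The PI3 kinase branch, through which the receptors act on growth and on FOXO factors, had 6 of 19 tested genes higher and 2 lower in NCSC, and 11 not called. The split depended on the scaling, with 5 higher and 3 lower after median centring and 9 higher and 2 lower with chromosome medians removed. In the latter setting Rheb, called higher at 0.31, was called lower (-0.26, limma adjusted p = 0.0496, range 0.00476 to 0.0661), Pik3r2 (-0.94) lost its call at 0.096, and Pik3r1, Pik3r3, Mtor, Rptor and Foxo3 were called higher. Tsc1 (0.51) lost its call in 8 alternatives, among them leaving out any single array other than NCSC 3 (limma adjusted p = 0.067 to 0.11, range over the alternatives 0.000691 to 0.444). Foxo1, a transcription factor held back by insulin and IGF signals, rose by 2.98 ± 0.12, and its relative Foxo4 rose by 1.88 ± 0.14 (limma adjusted p = 1.13e-05 and 0.00012). Eif4ebp1, an inhibitor of translation that mTOR switches off, fell by 1.81 ± 0.12 (limma adjusted p = 6.72e-05). The kinases Akt1 and Akt2, downstream of the receptors, differed by 0.24 ± 0.12 and 0.16 ± 0.071 and were not called. Both were under 0 with chromosome medians removed, at -0.27 and -0.13, and Akt2 was called without the filter (limma adjusted p = 0.0102, range 0.0102 to 0.367). In the RAS branch all 3 tested genes were called, Nras (0.76 ± 0.11) and Map2k1 (0.69 ± 0.11) higher and Map2k2 (-0.35 ± 0.096) lower. A dimmer Nras probe set differed by -0.026 and a dimmer Map2k2 probe set by -0.11. The Map2k2 call was lost without MSC 1, MSC 3, NCSC 1 or NCSC 2 (limma adjusted p = 0.0656 to 0.0728), under the replicate block (0.06) and with chromosome medians removed (0.063, limma adjusted p = 0.623), within a range of 0.00131 to 0.623.

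**Figure D4:**
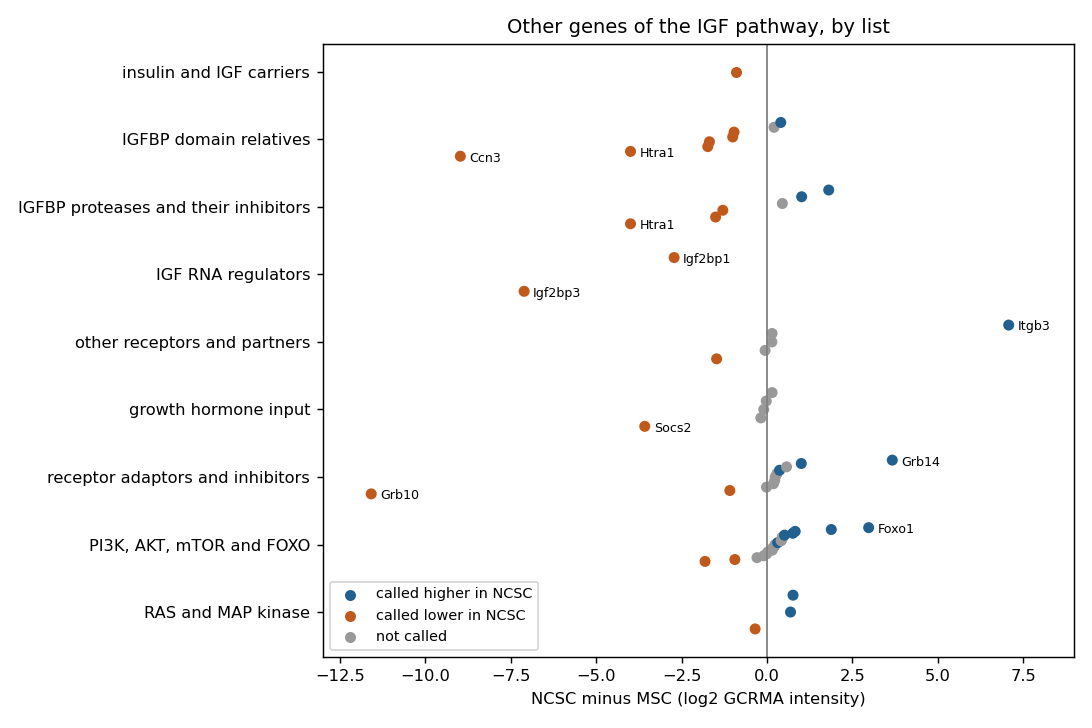
Difference NCSC minus MSC in log2 GCRMA intensity (x axis) for each tested gene (points) of 9 lists of other IGF pathway genes (rows), blue where called higher in NCSC, orange where called lower and grey where not called, with genes beyond 2.5 named. Grb10, Ccn3 and Igf2bp3 lie farthest to the left and Itgb3 farthest to the right.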

How the data were processed

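The authors deposited 1 table of linear intensity values per probe set, computed by GCRMA per the submitters' processing notes (version not stated); the scale was read from the values (4.36 to 116597). All 6 sample columns were used. Each intensity was taken to log2, with no further normalization. Probe sets were named from the platform annotation, with symbols and chromosomes from RefSeq GRCm38.p6, and 34754 of 34945 probe sets with 1 gene matched. No genome build is named for the table, so gene coordinates are given only for RefSeq promoters.

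In R 4.3.3, limma 3.58.1 gave the NCSC minus MSC differences of single probe sets above 4 on at least 3 arrays, without covariates, and adjusted by Benjamini-Hochberg over 21004 probe sets. SEs come from this fit. Where a group mean was at or under 4, a bound was computed with that group's values under 4 set to 4. The code was tested on simulated data.

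The genes, lists and tests were chosen with earlier results of these data known. From each pathway list up to 3 called genes with the largest change were named, with all genes of calls or non-calls numbering 5 or fewer, and the 5 nearest profiles of Igfbp3 and Igfbp5. Other genes named (Crim1, Ccn1, Ccn2, Irs1, Irs2, Akt1, Akt2, Pik3r1, Pik3r2, Pik3r3, Mtor, Rptor, Foxo3, Tsc1, Rheb) were chosen after their values were seen. Alternatives were filters, limits, scalings, moderation, array weights, a replicate block, chromosome medians and arrays left out. The number of arrays limits the precision.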

Additional observations from a re-analysis of the deposited data

How the results depend on the processing

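Of the 21 kept probe sets 17 had the same sign under every one of the 17 alternatives in which they were tested. The other 4 were 3 of Igf1 and Igfbp5 1422313_a_at, none of which was called with all arrays. Members called were 16, between 12 (without MSC 1, also without NCSC 2) and 16 (without MSC 2) when single arrays were left out, and 9 (of 14 tested) when all 6 arrays had to lie above the limit, since that filter removes genes under it in 1 cell type. Calls lost concerned 2 probe sets of Igf1r (1452108_at and 1452982_at) and 2 of Igfbp4 (1421992_a_at and 1423757_x_at). A pair of Igf1 probe sets (1419519_at and 1452014_a_at) gained a call as higher in NCSC under at least 1 alternative.

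For the other pathway genes 33 calls became 29 (without MSC 1) to 37 (without MSC 2) with single arrays left out, and 44 with array weights. When all kept probe sets were counted singly 67 of 118 were called, because more features enter. Calls were lost with the sign kept for 6 genes and gained for 16 under at least 1 alternative. For 5 called genes the sign changed with chromosome medians removed, and of these Insr, Ptpn11, Pik3r2 and Map2k2 lost their calls there. With chromosome medians removed Insr was 0.13, Ptpn11 -0.21, Pik3r2 0.096, Rheb -0.26 and Map2k2 0.063, on the other side of 0 from the values fitted without that step; median differences by chromosome ran from -0.94 to 0.49, and their cause was not tested. Over all probe sets 12362 calls became 10277 (without MSC 3) to 13066 (without NCSC 3) with single arrays left out.

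The labels number the replicates of both cell types, but deviations of same-numbered arrays correlated at -0.089, 0.052 and 0.039, so the numbers were not treated as pairs. With the replicate block 11293 probe sets, 15 members (all among the 16) and 31 pathway genes were called; the members' differences are unchanged by it.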
